A study of Mus musculus with 4 samples.

Results

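The genes described here act in homologous recombination, in the Fanconi anemia pathway and in the replication checkpoint. They are 41 genes listed by name. All 41 were found among the 23970 gene symbols of the expression table, and 40 of them had a mean of at least 1 FPKM over the 4 libraries (FPKM counts fragments per kilobase of a transcript and scales them to library size, so levels of different genes can be compared per length). The remaining gene, Rmi2, had a mean of 0.291 FPKM, and the lowest gene kept, Rad51c, a mean of 1.12. RNA came from keratinocytes of newborn (P0) mice, cultured at passage 0 in low calcium E-media on mitotically inactivated J2-3T3 cells, a mouse fibroblast feeder line that was removed before RNA isolation with Trizol. The 2 control libraries and the 2 Ovol2-deficient libraries shared these conditions and received no other treatment. The allele and how it was made, the number of animals behind each library and any pooling are not stated in the labels. The p-values therefore measure the spread between these libraries, which may be partly technical.

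Homologous recombination repairs a broken chromosome by copying the intact sister chromatid, and is therefore active mainly in S and G2 phase. The broken end is resected to single-stranded DNA, BRCA2 and its partners prepare that DNA to pair with the sister, and the joined molecules are later dissolved or cut apart. The Fanconi proteins ubiquitinate FANCD2 and FANCI at a replication fork stalled by a DNA crosslink, and the kinases ATR and CHK1 hold back the cell cycle while forks are stalled. Many of the genes are transcribed under E2F control in dividing cells, and in epidermis division takes place in the basal layer.

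Ovol2, the deficient gene, is an epithelial zinc-finger transcription factor. It stood at 2.68 and 2.14 FPKM in the controls and at 1.45 and 0.941 in the Ovol2-deficient libraries, and this difference did not pass the test (adjusted p = 0.129). Its log2 fold change was -0.64 from FPKM and -0.36 in the authors' deposited table (adjusted p = 0.441 there). The labels do not state where the gene was changed, so the level of Ovol2 checks them in part. All 11 keratinocyte markers checked were expressed, with means from 15.5 to 2619 FPKM. All 11 had log2 fold changes below 0 (median -0.30, background 50.4% of tested genes below 0). Of these, 8 lay below both controls (background 24.0%) and 1 fell in limma (background 0.511%). It was Lamb3, which encodes a laminin subunit, from 73.6 ± 1.98 to 45.7 ± 0.660 FPKM (SD, n = 2 per group, log2 fold change -0.68, adjusted p = 0.0353 in limma). The authors' deposited table called 4 lower (Lamb3, Itga6, Col17a1 and Cdh1, background 2.20%). The summed level of the 11 was 6543 and 6354 FPKM in the controls against 5857 and 5108. Fibroblast and feeder markers were present too, and were higher in the deficient libraries. Of 18 such genes, 15 were measured, while Lum, Dcn and Postn were under 1 FPKM and none was at 0 throughout. All 15 had both Ovol2-deficient values above both controls (background 24.1%), and 2 rose in limma (Loxl1 and Pcolce, background 0.837%). The authors' deposited table called 10 of the 15 higher (background 2.41%), and 14 were higher at an unadjusted p under 0.05 in limma (background 9.49%). The summed level of the 18 was 653.8 and 615.6 FPKM in the controls and 843.9 and 905.0 in the Ovol2-deficient libraries. Melanocyte markers summed to 62.9 and 68.6 against 91.8 and 85.2 FPKM, and the authors' deposited table called 1 of the 6 measured higher (background 2.41%). All 6 lay above both controls (background 24.1%), with a median log2 fold change of 0.37. In limma 0 of them passed, and 4 were higher at an unadjusted p under 0.05 (background 9.49%). Of the 8 immune markers, Cd52 and Cd207 were at 0 and 2 were measured. The part of these cell type markers in the differences below was not tested. In bulk RNA fewer cells of a type and less RNA per cell cannot be told apart.

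Across the 40 genes the Ovol2-deficient libraries were mostly the lower ones, by small amounts. The deficient mean was under 75% of the control mean for 15 genes, from 75% to under 90% for 16, and from 90% to 110% for 9. Only Fanca fell (limma on log2(FPKM + 1), adjusted over all 11350 tested genes), which is 1 of 40 beside a background of 0.511% of tested genes called lower. No gene of the 40 rose (background 0.837%). At an unadjusted p under 0.05, 16 of the 40 were lower and 0 higher, beside 7.94% and 9.49% of all tested genes. For 29 genes the pair of deficient values was below the pair of controls (background 24.0%), for 0 it was above (background 24.1%), and the 11 others overlapped. The median log2 fold change was -0.23, beside -0.0014 for all tested genes, and 39 of 40 values were below 0 (background 50.4%). The exception was Xrcc3. These counts describe a list that was drawn up with results of the same libraries known.

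**Figure D1:**
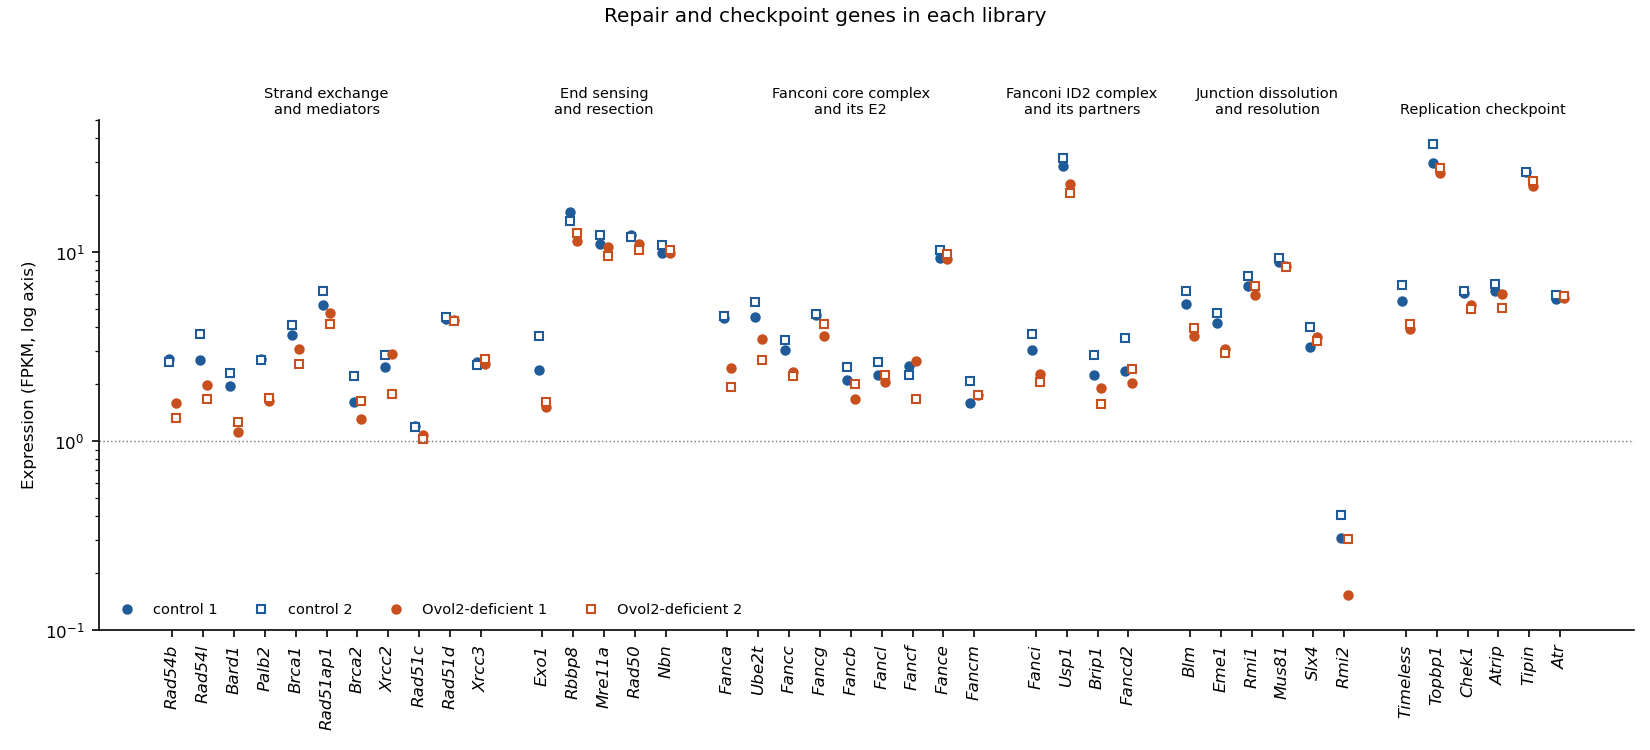
FPKM of each of the 41 genes in each library (log axis, blue for control, orange for Ovol2-deficient, filled for library 1, open for library 2), grouped by role. The dotted line marks 1 FPKM. Topbp1, Usp1 and Tipin have the highest means, Rmi2 lies under the line, and the orange points of 29 of the 40 genes above it lie below both blue points.

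The authors' deposited table, their own comparison of the same 4 libraries, called 5 of the 40 genes lower and 0 higher at an adjusted p under 0.05 (background 2.20% and 2.41%). They were Fanca, Exo1, Usp1, Blm and Timeless. Its median log2 fold change over the 40 genes was -0.25, beside -0.018 for all tested genes. The log2 fold changes from FPKM and those of the authors' deposited table differed by a median of 0.027. Their signs were opposite for Rad51d and Xrcc3. That table also shows how many reads stand behind each gene. Its mean normalized values ran from 34.6 for Fancf to 2264 for Topbp1 among the 40 genes. Counting error alone would then be about 17.0% per library for Fancf and 2.10% for Topbp1, if the normalized values are close to read numbers.

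The 2 controls differed from each other in the same genes. Of the 40, 32 were higher in control 2 than in control 1 (80.0%, beside 46.6% of all tested genes), with a median log2 difference of 0.14. Between the Ovol2-deficient libraries 18 of 40 were higher in library 2 (background 37.9%), with a median of -0.0085. Without control 1 the median log2 fold change of the 40 genes was -0.28, and without control 2 it was -0.19. For 21 of the 40 the log2 fold change moved by over 1.5 times when 1 of the 4 libraries was left out, and for 8 its sign turned.

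For the gene that fell, and for the 3 others whose sequence before the start holds letters of an E2F site clear of the annotated first exon, the RefSeq promoter sequence (GRCm38.p6, the build also called mm10) is shown 5′ to 3′ up to the first exon. Capitals mark matches to an E2F site (TTTCGCGC, TTTGGCGC, TTTCCCGC or TTTGGCGG), to the cell cycle element CHR (TTTGAA or TTCGAA) or to a CCAAT box (CCAAT), each searched on both strands. Fanca is at chr8:123318577-123318826 (minus strand), Bard1 at chr1:71103147-71103222 (minus strand), Brca2 at chr5:150522371-150522620 (plus strand) and Topbp1 at chr9:103305077-103305214 (plus strand).
Fanca: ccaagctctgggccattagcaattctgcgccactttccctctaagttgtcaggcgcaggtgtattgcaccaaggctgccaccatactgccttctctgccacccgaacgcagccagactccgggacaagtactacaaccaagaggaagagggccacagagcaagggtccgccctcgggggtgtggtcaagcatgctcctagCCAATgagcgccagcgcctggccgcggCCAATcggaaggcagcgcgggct
Bard1: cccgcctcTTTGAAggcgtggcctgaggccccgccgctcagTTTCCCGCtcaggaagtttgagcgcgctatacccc
Brca2: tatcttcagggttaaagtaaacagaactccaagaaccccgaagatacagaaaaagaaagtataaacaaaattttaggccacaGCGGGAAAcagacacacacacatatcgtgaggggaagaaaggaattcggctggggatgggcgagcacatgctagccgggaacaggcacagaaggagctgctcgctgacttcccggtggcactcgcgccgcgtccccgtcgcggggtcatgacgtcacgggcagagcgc
Topbp1: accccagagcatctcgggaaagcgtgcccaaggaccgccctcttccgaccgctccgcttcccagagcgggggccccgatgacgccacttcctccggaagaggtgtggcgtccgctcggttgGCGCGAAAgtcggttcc
The Fanca sequence holds CCAAT at 2 places, starting 50 and 23 bases before the start. Bard1 holds TTTGAA and TTTCCCGC, Brca2 holds GCGGGAAA (the reverse complement of TTTCCCGC) and Topbp1 holds GCGCGAAA (the reverse complement of TTTCGCGC). Promoters of 30 of the 40 genes were in the table, 33 in all. In the 250 bases before the start, 4 of the 33 (12.1%) held an E2F match, beside 1.96% of all 32851 promoters and 3.70% of those of tested genes. The fourth, that of Fancg, lies inside the first exon as GENCODE M21 draws it. CCAAT was present in 18 (54.5%, beside 33.8% of all and 35.3% of those of tested genes). A CHR match was present in 2 (6.06%, beside 17.1% of all and 11.8% of those of tested genes). The median log2 fold change was -0.27 for the 4 genes with an E2F match and -0.22 for the 26 without, and -0.21 for the 17 genes with CCAAT and -0.24 for the 13 without.

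The genes of strand exchange were expressed at low levels, with means from 1.12 FPKM (Rad51c) to 5.09 (Rad51ap1). None of the 11 passed the test. The group had a median log2 fold change of -0.30 (-0.20 without control 2). Below both controls lay 8 genes (background 24.0%), 3 overlapped, and 5 were lower at an unadjusted p under 0.05 in limma (background 7.94%). Rad54b and Rad54l, motor proteins that act in the invasion of the sister duplex, had the lowest values. Rad54b stood at 2.73 and 2.61 FPKM in the controls and at 1.60 and 1.33 in the Ovol2-deficient libraries, 54.7% of the control mean (log2 fold change -0.58, SE 0.14, adjusted p = 0.101). Rad54l stood at 2.67 and 3.68 against 1.98 and 1.66 (log2 fold change -0.56, SE 0.17, adjusted p = 0.147). In both, each deficient value was below each control value, and the controls of Rad54l were further apart than its deficient libraries.

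BRCA1 and BARD1 form the ubiquitin ligase that promotes resection, and PALB2 bridges BRCA1 to BRCA2. Brca1 stood at 3.62 and 4.12 FPKM against 3.05 and 2.54 in the deficient libraries (log2 fold change -0.36, SE 0.14, adjusted p = 0.242). Bard1 stood at 1.96 and 2.30 against 1.12 and 1.26 (log2 fold change -0.51), and Palb2 at 2.72 and 2.68 against 1.63 and 1.69 (log2 fold change -0.48). For these 3 genes the groups did not overlap, and the Palb2 values within each group differed by little. Brca2 itself stood at 1.62 and 2.21 against 1.30 and 1.63, so that the second deficient value was above the first control (log2 fold change -0.24, SE 0.17, adjusted p = 0.540). Its difference from the control had a 95% interval from -0.63 to 0.16, and the log2 fold change was -0.38 without control 1, -0.088 without control 2 and -0.14 without deficient library 1.

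Rad51c, Rad51d, Xrcc2 and Xrcc3, which also act in recombination, had log2 fold changes from -0.15 (Xrcc2) to 0.019 (Xrcc3). Rad51c stood at 1.20 and 1.19 against 1.07 and 1.02, and Rad51d at 4.43 and 4.53 against 4.38 and 4.34 FPKM. Xrcc2 ranged more widely in the deficient libraries (2.89 and 1.77) than in the controls (2.47 and 2.84), and its log2 fold change was 0.092 without deficient library 2. Xrcc3 was the one gene with a log2 fold change above 0, at 2.63 and 2.54 against 2.55 and 2.71 (0.019, SE 0.13, adjusted p = 0.965, 95% interval -0.29 to 0.33). Its exons overlap those of Klc1 on the other strand, a gene at a mean of 48.5 FPKM, and the library type does not state a strand. In the authors' deposited table the log2 fold change was -0.21 for Xrcc3 and 0.20 for Rad51d (adjusted p = 0.824 and 0.721).

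In the group that senses and resects broken ends, 0 of 5 genes passed the test in limma, with a median log2 fold change of -0.20. Lower at an unadjusted p under 0.05 in limma were 2 (background 7.94%), and 4 lay below both controls (background 24.0%). Exo1, the nuclease of long-range resection, was at 2.39 and 3.58 FPKM in control libraries and 1.52 and 1.61 in deficient ones, 52.4% of the control mean (log2 fold change -0.62, SE 0.18, adjusted p = 0.135). Its controls were further apart than its deficient libraries, and the call turned on them. Without control 1 it passed (log2 fold change -0.84, adjusted p = 0.0388), with the remaining control assumed to vary as the deficient pair does, and without control 2 it did not (-0.40, adjusted p = 0.358). Without deficient library 1 or 2 the adjusted p was 0.382 and 0.393. The authors' deposited table called it lower (log2 fold change -0.67, adjusted p = 0.0105). Rbbp8, which encodes CtIP, the partner that starts resection, stood at 16.3 and 14.6 against 11.4 and 12.6 (log2 fold change -0.34, SE 0.11, adjusted p = 0.167).

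Mre11a, Rad50 and Nbn encode the complex that first binds the break. They were expressed at means of 10.9, 11.4 and 10.2 FPKM, close to one another, and their log2 fold changes were -0.20, -0.19 and -0.041. Nbn stood at 9.86 and 10.9 against 9.90 and 10.2, and its groups overlapped (SE 0.10, adjusted p = 0.890, 95% interval -0.29 to 0.21). For Mre11a and Rad50 the groups did not overlap.

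Of the 9 genes of the Fanconi core complex and its ubiquitin-conjugating enzyme, 1 fell (background 0.511%) and 8 did not pass in limma. Their median log2 fold change was -0.21 (-0.13 without deficient library 1). Fanca, a scaffold subunit of the core, stood at 4.47 and 4.61 FPKM in the controls and at 2.43 and 1.93 in the Ovol2-deficient libraries. The deficient mean of 2.18 ± 0.350 was 48.0% of the control mean of 4.54 ± 0.104 (SD, n = 2 per group). The log2 fold change was -0.80 (SE 0.14, adjusted p = 0.0473 in limma, 95% interval -1.13 to -0.48), and the authors' deposited table gave -0.75 (adjusted p = 0.00159). Fanca (ENSMUSG00000032815.16) lies at chr8:123268300-123318576 on the minus strand, and its exons overlap those of Zfp276 on the other strand. Zfp276 stood at 3.91 and 4.53 against 4.26 and 4.16 FPKM, with overlapping groups.

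The call of Fanca was close to the threshold. It was lost without control 2 (adjusted p = 0.0643), without Ovol2-deficient library 1 (0.182) or library 2 (0.213), with the libraries scaled to one median (0.0537), under quantile normalization (0.0640), without the variance trend (0.0659) and with no filter on low values (0.229). The log2 fold change stayed between -0.92 and -0.69 when 1 library was left out.

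Ube2t, the ubiquitin-conjugating enzyme that works with the core, stood at 4.54 and 5.42 against 3.46 and 2.69 (log2 fold change -0.56, SE 0.15, adjusted p = 0.118), with no overlap. Among the other subunits Fancc stood at 69.7% of the control mean, Fancb at 80.8% and Fancg at 83.0%, each with both deficient values below both controls. Fancl, the ubiquitin ligase subunit, and Fancf were at 88.4% and 91.6% with overlapping groups. On the other strand, exons of Fancc overlap those of 2010111I01Rik, which had a mean of 17.2 FPKM and was at 66.6% of its control mean. Exons of Fancl overlap those of Vrk2 (5.86 FPKM, 73.2%), and exons of Fancf those of Gas2 (1.10 FPKM, 73.2%). None of these partners passed in limma, and the part of their reads in the values was not tested. Fance was the most abundant subunit, with a mean of 9.61 FPKM, and was at 96.7% of its control level. Fancm, the helicase that recognizes the stalled fork, stood at 1.59 and 2.09 against 1.75 and 1.75, so that both deficient values lay between the controls (log2 fold change -0.040, SE 0.15, adjusted p = 0.935). Subunits of one complex thus ranged from 48.0% to 96.7% of the control level, though differences between subunits were not tested.

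FANCD2 and FANCI are the pair that the core complex ubiquitinates, USP1 removes the ubiquitin, and BRIP1 is a helicase that binds BRCA1. All 4 genes had log2 fold changes below 0 (background 50.4%), with a median of -0.40, and 0 passed the test in limma. Of the 4, 2 were lower at an unadjusted p under 0.05 in limma (background 7.94%) and 3 lay below both controls (background 24.0%). Usp1 stood at 28.6 and 31.5 FPKM against 23.0 and 20.6 (log2 fold change -0.44, SE 0.10, adjusted p = 0.0848), and the authors' deposited table called it lower (log2 fold change -0.44, adjusted p = 0.00956). It was the second most abundant of the 40 genes. Fanci stood at 3.04 and 3.66 against 2.25 and 2.06 (log2 fold change -0.46, SE 0.14, adjusted p = 0.155), and its groups were apart. Fancd2 stood at 2.35 and 3.49 against 2.04 and 2.39, with the second deficient value just above the first control (log2 fold change -0.27, SE 0.18, adjusted p = 0.492). Without control 1 its log2 fold change was -0.49 and without control 2 it was -0.062. Brip1 was at 68.7% of the control mean.

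The genes that take joined DNA molecules apart had a median log2 fold change of -0.15 (-0.079 without control 2). Of 5 measured, 0 passed in limma and 2 were lower at an unadjusted p under 0.05 (background 7.94%). Blm, the helicase that dissolves double junctions, stood at 5.29 and 6.23 FPKM against 3.59 and 3.96 (log2 fold change -0.50, SE 0.13, adjusted p = 0.108), and the authors' deposited table called it lower (log2 fold change -0.50, adjusted p = 0.0394). Rmi1, a partner of BLM, was at 88.8% of the control mean. The other partner, Rmi2, was under the filter at 0.308 and 0.404 against 0.152 and 0.302 FPKM. Eme1 and Mus81 form the nuclease that cuts junctions. Eme1 stood at 4.19 and 4.77 against 3.07 and 2.92 (log2 fold change -0.45, SE 0.13, adjusted p = 0.129), and Mus81 was at 91.9% of the control mean. The difference between the 2 genes was not tested. On the other strand, exons of Eme1 overlap those of Lrrc59 (mean 118.9 FPKM, 93.8% of its control mean) and Mrpl27 (40.6 FPKM, 102.8%). Mus81 exons overlap those of Efemp2 on the other strand, which rose from 11.8 ± 0.233 to 18.1 ± 0.858 FPKM (SD, n = 2 per group, log2 fold change 0.58, adjusted p = 0.0470 in limma). Slx4, the scaffold for several nucleases, stood at 3.14 and 3.99 against 3.55 and 3.39, with both deficient values between the controls (log2 fold change -0.025, SE 0.14, adjusted p = 0.957).

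The replication checkpoint held some of the most abundant of the genes, Topbp1 with a mean of 30.3 FPKM and Tipin with 24.8. Of its 6 genes 0 passed in limma (median log2 fold change -0.21). Lower at an unadjusted p under 0.05 in limma were 2 (background 7.94%), and 5 lay below both controls (background 24.0%). TIMELESS and TIPIN travel with the fork as a pair. Timeless stood at 5.53 and 6.73 against 3.91 and 4.14 (log2 fold change -0.50, SE 0.13, adjusted p = 0.110), and the authors' deposited table called it lower (log2 fold change -0.48, adjusted p = 0.0427). Tipin was at 87.2% of the control mean, with values of 26.5 and 26.4 against 22.5 and 23.7. The groups did not overlap for either gene.

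Topbp1, which activates ATR, stood at 29.8 and 37.3 against 26.2 and 27.8 (log2 fold change -0.29, SE 0.12, adjusted p = 0.277), and its log2 fold change was -0.14 without control 2. Chek1, which encodes the kinase CHK1, stood at 6.09 and 6.23 against 5.24 and 5.01 (log2 fold change -0.23, SE 0.11, adjusted p = 0.358). Atr, the kinase at the head of the pathway, stood at 5.62 and 5.96 against 5.71 and 5.83, with the deficient values inside the range of the controls (log2 fold change -0.0041, SE 0.11, adjusted p = 0.991). The 95% interval of its difference ran from -0.26 to 0.26. Its partner Atrip was at 85.0% of the control mean, and shares exons with Trex1 on the same strand, so the share of each is uncertain.

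**Figure D2:**
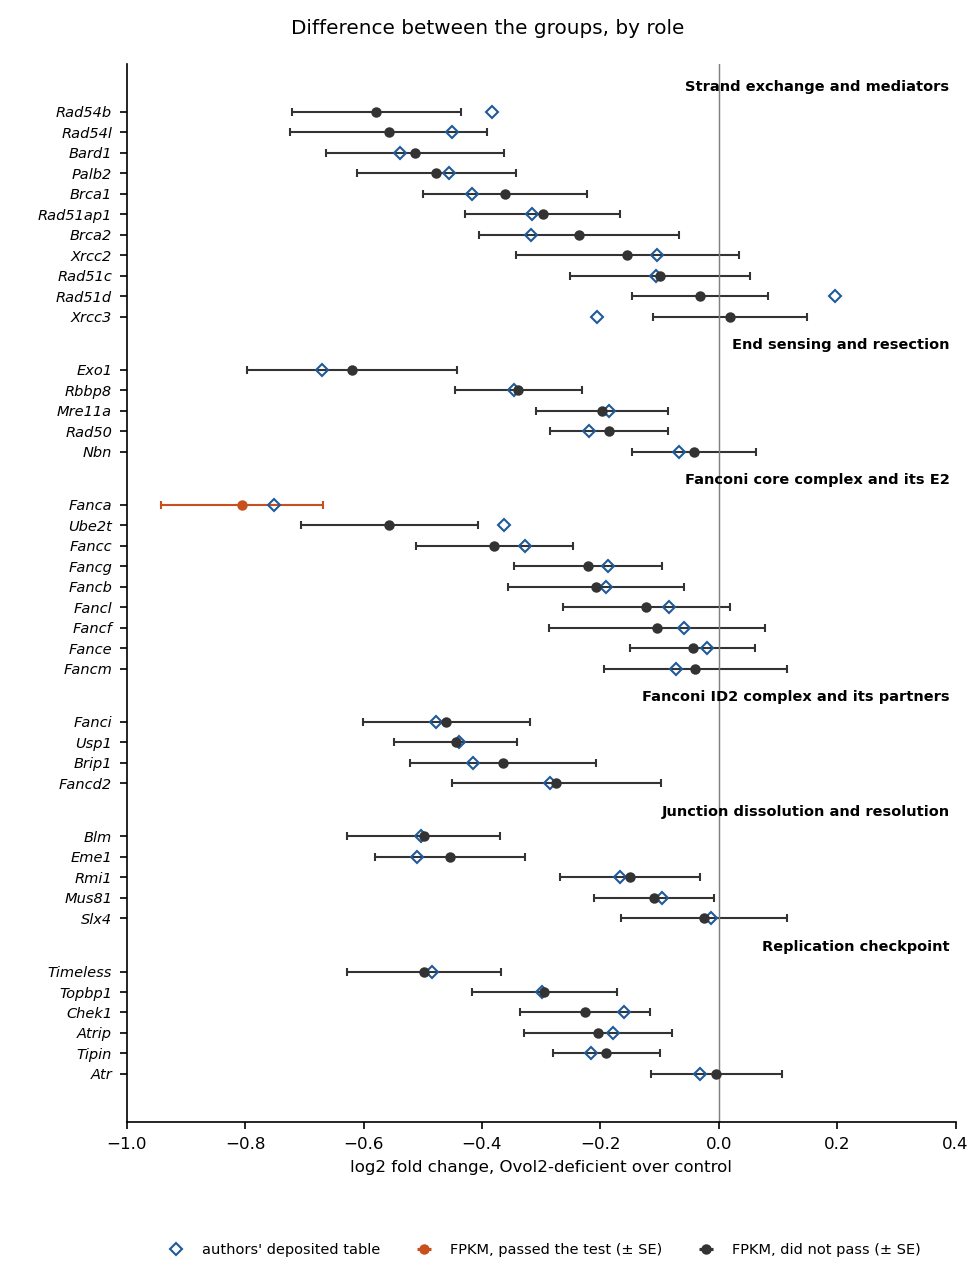
log2 fold change of Ovol2-deficient over control for the 40 measured genes by role, on log2(FPKM + 1) with its SE (circles, n = 2 per group) and from the authors' deposited table (diamonds). Fanca, in orange, is the gene that passed the test, at -0.80, and most circles and diamonds lie left of 0.

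Levels of the 40 genes spanned Rad51c at 1.12 to Topbp1 at 30.3 FPKM, with a median of 3.63 beside 13.5 for all tested genes. Only 7 had a mean of at least 10 FPKM (Topbp1, Usp1, Tipin, Rbbp8, Rad50, Mre11a and Nbn), and 25 were under 5. Because fold changes are taken on log2(FPKM + 1), the changes of low genes are understated. With a pseudocount of 0.1 the log2 fold change of Fanca was -1.03 and that of Exo1 -0.86. The exons of 20 of the 40 genes overlap a gene on the other strand in GENCODE M21, and for 11 of them such a partner was at a mean of at least 1 FPKM, so their values may hold reads of that partner.

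Other genes of the same pathways had a median that was also below 0, though nearer to it. Of 46 further recombination, Fanconi and checkpoint genes measured, 1 fell (background 0.511%) and 45 did not pass (median log2 fold change -0.13). It was H2afx, the histone variant marked at breaks, which fell from 39.1 ± 0.832 to 26.9 ± 0.236 FPKM (SD, n = 2 per group, log2 fold change -0.52, SE 0.09, adjusted p = 0.0473 in limma). The authors' deposited table called 3 of the 46 lower and 0 higher (background 2.20% and 2.41%). Among them were H2afx and Clspn, the adaptor between ATR and CHK1, and Clspn did not pass in limma (adjusted p = 0.0855). At an unadjusted p under 0.05 in limma, 10 of the 46 were lower and 0 higher (background 7.94% and 9.49%). For 23 both deficient values were below both controls (background 24.0%), for 0 they were above, and 39 log2 fold changes were below 0 (background 50.4%).

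The lists of other repair pathways had medians near 0, though single genes lay further from it. Log2 fold changes ran from -0.58 to 0.15 in base excision repair, -0.40 to 0.10 in translesion synthesis and -0.32 to 0.11 in end joining. They ran from -0.26 to 0.20 in mismatch repair and -0.21 to 0.22 in nucleotide excision repair. The median log2 fold change was -0.010 for 9 genes of non-homologous end joining, -0.059 for 7 of mismatch repair, -0.031 for 15 of base excision repair, -0.015 for 17 of nucleotide excision repair and -0.0040 for 7 of translesion synthesis. None of these genes passed in limma or in the authors' deposited table. At an unadjusted p under 0.05 in limma, 3 were lower in base excision repair and 0 in nucleotide excision repair. In each of end joining, mismatch repair and translesion synthesis 1 was lower (background 7.94% of tested genes). The lists of proliferation genes had medians further below 0. The median was -0.39 for 25 replication licensing and fork genes, of which 1 fell (Mcm6, a helicase subunit, at 36.8 and 42.2 against 26.4 and 25.0 FPKM), and -0.68 for 20 genes of G2 and M phase, of which 11 fell, among them Mki67 and Ccna2. Among 18 E2F factors and pocket proteins the median was -0.13 and 1 fell, Rbl1, a pocket protein that binds E2F, from 14.8 ± 1.18 to 9.03 ± 0.278 FPKM (SD, n = 2 per group, log2 fold change -0.66, adjusted p = 0.0434 in limma). The authors' deposited table called 7 of the 25 replication genes, all 20 genes of G2 and M phase and 4 of the 18 E2F and pocket protein genes lower (E2f7, E2f8, Rbl1 and Mybl2), and 0 higher. At an unadjusted p under 0.05 in limma, 19, 20 and 5 were lower and 0 higher (background 7.94% and 9.49%). For lower calls at the adjusted threshold the background was 0.511% in limma and 2.20% in the authors' deposited table. The differences between these lists were not tested, and log2(FPKM + 1) understates the changes of lists with low levels more. With a pseudocount of 0.1 the median of the 40 listed genes was -0.30.

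**Figure D3:**
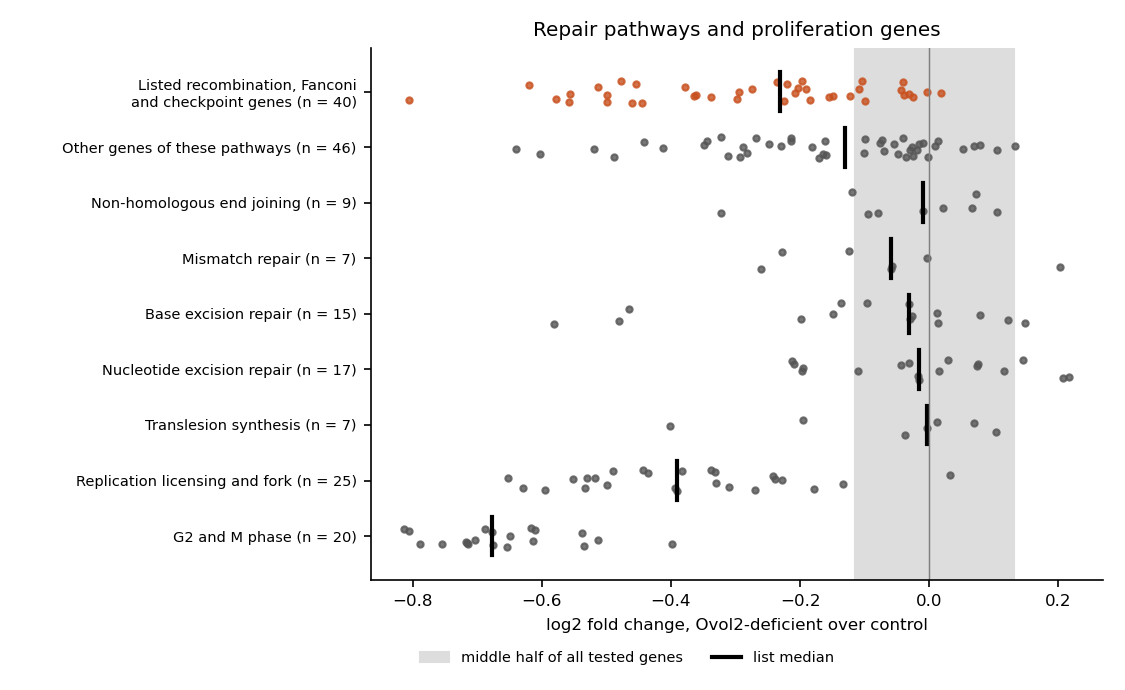
log2 fold change of Ovol2-deficient over control for each measured gene (points) of the repair and proliferation lists, with the list median (black bar). The grey band spans the middle 50% of all tested genes, from -0.11 to 0.13. The listed recombination, Fanconi and checkpoint genes (orange) have a median of -0.23, between the other repair lists and the replication and G2 and M phase lists.

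Summed over the 41 genes, the level was 262.1 and 289.4 FPKM in the controls against 223.3 and 220.4 in the Ovol2-deficient libraries. As a percent of the control mean this was 81.0% and 79.9% in the deficient libraries, while the summed level of Mcm2 to Mcm7, the subunits of the replicative helicase, was 74.1% and 68.3%, and that of the 20 G2 and M phase genes 65.9% and 59.0%. Set against the helicase genes of the same library, the 41 genes made up 134.7% and 126.8% of their sum in the controls, against 142.5% and 152.7%. Set against the G2 and M phase genes they made up 52.8% and 52.6%, against 64.8% and 71.4%. By role, the summed level in deficient libraries 1 and 2 was 75.2% and 68.6% for FANCD2, FANCI and their partners, and 79.6% and 72.9% for strand exchange. It was 80.5% and 78.6% for the Fanconi core, 81.3% and 84.3% for junction processing, 82.3% and 84.5% for the checkpoint and 84.3% and 83.8% for end resection. Sums follow their most abundant genes, such as Usp1 and Topbp1. In every role group both deficient sums lay below both control sums, in the libraries in which the summed fibroblast and feeder markers were at 133.0% and 142.6% of the control mean.

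**Figure D4:**
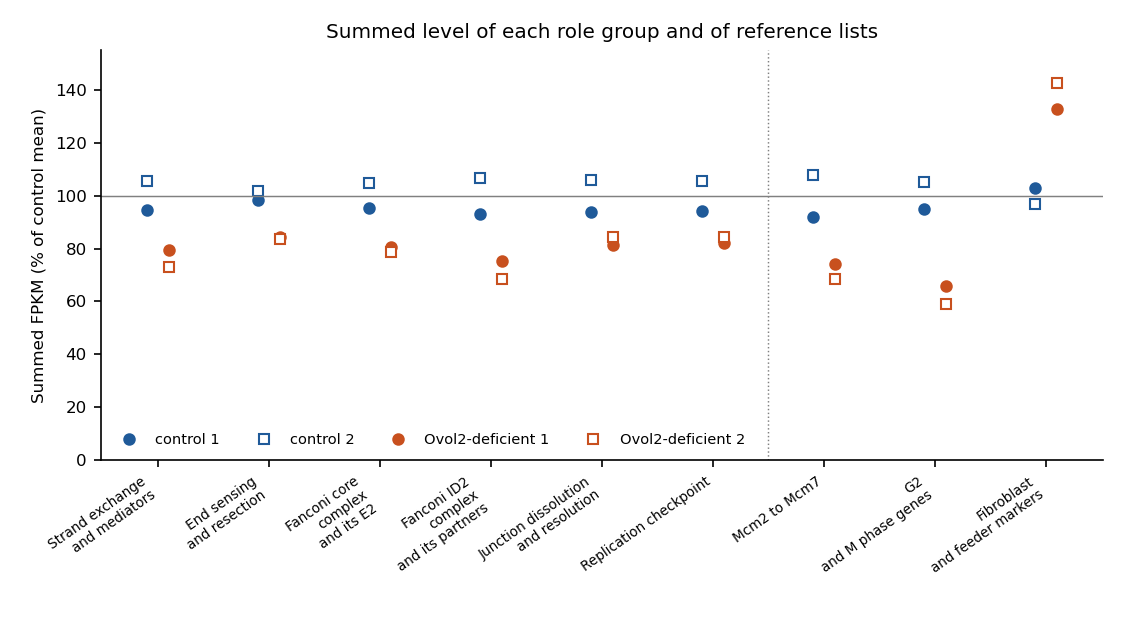
Summed FPKM of each role group, of Mcm2 to Mcm7, of 20 G2 and M phase genes and of 18 fibroblast and feeder markers in each library, as a percent of the mean of the controls (axis from 0). The role groups lie between 68.6% and 84.5% in the Ovol2-deficient libraries, the G2 and M phase genes at 65.9% and 59.0%, and the fibroblast and feeder markers above 100.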

How the data were processed

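RNA-seq of 4 keratinocyte libraries was used. Per the labels' protocols, full-length cDNA was amplified and tagmented with a Nextera kit, with no strand stated. TopHat, HTSeq and mm10 are named in the submitters' processing notes, with no version or role. The authors deposited expression in FPKM for 24487 rows, and the tool that made it and its annotation are not given in the sources used here. Their second deposited table (24062 rows) gives, per the file headers, a normalized signal averaged over the samples, log2 fold changes with standard errors, scores of a test, and raw and adjusted p-values. Total counts per library are not in the files used here, so the depth is unknown beyond the mean normalized values.

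Libraries were grouped by the genotype label. Columns of the Ovol2-deficient group are numbered as in the table, since the labels use another code. A further 27 rows, whose symbols read as dates, were dropped, and values of repeated symbols were added up. Genes with a mean of at least 1 FPKM (11350) were fitted on log2(FPKM + 1) in R 4.3.3 by limma 3.58.1 with 1 term for group and moderated variances that follow a trend (two-sided, Benjamini-Hochberg over all tested genes, threshold 0.05), and the listed genes were read from that fit. The script was tested on simulated data with 200 changed genes. It recovered 36.3% of 1.5-fold changes, 87.9% of 2-fold and 99.7% of 4-fold changes, and 6.12% of calls were false. Those changes were added on the log2(FPKM + 1) scale to genes drawn from all tested genes, with noise independent between libraries. The listed genes had lower levels (median 3.63 FPKM beside 13.5 for all tested genes), so these shares may not hold for them. A gene that did not pass may therefore still differ, and not only by a small amount. Exo1 did not pass at 52.4% of its control mean, nor did Rad54b at 54.7%. A permutation of 2 against 2 libraries cannot reach a small p, and the p-values depend on limma's model. Across tested genes log2(FPKM + 1) correlated at r = 0.986 between the controls and 0.987 between the deficient libraries.

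Members and lists were chosen with earlier results of these data known. Values are printed for genes that passed, for Brca1, Brca2, Fancd2, Chek1 and Atr, for the 2 lowest and the highest log2 fold change of each role, and more briefly for the rest. From each other list at most 2 passing genes per direction were named, with Mcm6, Mki67, Ccna2 and Ovol2. One gene of the other lists, though counted in them, is not reported by name here. Genes named from the authors' calls and from overlapping annotation were chosen after their values were seen. Promoters are from RefSeq (GRCm38.p6), gene positions from GENCODE M21. The alternatives were other pseudocounts, filters, scalings and variance models, the replicate number as a block, and each library left out, with the filter applied again to the libraries left.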

Additional observations from a re-analysis of the deposited data

How the results depend on the processing

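The alternatives were pseudocounts of 0.1 and 0.5, no filter, a mean of at least 5 FPKM, quantile normalization, scaling to one median, no variance trend, the replicate number as a block, and each library left out. The median log2 fold change of the listed genes stayed below 0 in all of them, from -0.28 to -0.19 with 1 library left out. The single call among them, Fanca, became 0 calls under no filter, at a mean of at least 5 FPKM (which leaves 15 listed genes and drops Fanca), quantile normalization, scaling to one median and no variance trend, and 0 to 2 with 1 library left out (Fanca and Exo1 without control 1, 0 without each of the others). Over all tested genes, 95 higher and 58 lower calls became 3 and 0 with no filter, 152 and 115 at a mean of at least 5 FPKM, 5 and 0 under quantile normalization, 53 and 38 with scaling to one median, and 6 and 0 without the variance trend, with 10 to 298 higher and 0 to 168 lower with 1 library left out. In the other lists together, 2 higher and 15 lower calls became 0 and 0 with no filter, under quantile normalization and without the variance trend, 6 higher at a mean of at least 5 FPKM, 0 higher with scaling to one median, and 0 to 6 higher and 0 to 32 lower with 1 library left out.

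The libraries share only a replicate number, and the deviations of the libraries numbered 1 from their group means correlated at 0.220 across genes. With the replicate block 335 genes were called higher and 183 lower, 8 and 27 in the other lists, and Fanca alone among the listed genes (adjusted p = 0.0291).

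With 1 library left out the median of the role groups ran from -0.40 to -0.20 for strand exchange, -0.29 to -0.13 for the Fanconi core, -0.50 to -0.30 for FANCD2, FANCI and their partners, -0.22 to -0.079 for junction processing, -0.25 to -0.17 for the checkpoint and -0.27 to -0.14 for end resection. The sign of 8 genes turned. With 1 library left out the log2 fold changes ran from -0.040 to 0.032 for Atr, -0.17 to 0.089 for Fancm, -0.11 to 0.027 for Nbn, -0.16 to 0.11 for Slx4 and -0.013 to 0.051 for Xrcc3, the first value without control 1 and the last without control 2 for all but Xrcc3 (without Ovol2-deficient library 2 and library 1). Atr was also above 0 without Ovol2-deficient library 1 (0.0083) and Slx4 without library 2 (0.00044). Xrcc2 (from -0.40 to 0.092) and Fancf (from -0.33 to 0.12) were above 0 without Ovol2-deficient library 2, and Fance (from -0.10 to 0.013) without control 2. Xrcc3 was at -0.072 under quantile normalization.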
